A study of Mus musculus with 4 samples.

Results

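Heat shock proteins and chaperonins are the machines that fold new proteins, hold unfolded ones in solution and refold those damaged by stress. They were taken here as the genes of the array's clone table whose symbol begins with Hspa, Hspb, Hspd, Hspe or Hsph and a digit, with Hsp90, with Dnaja, Dnajb or Dnajc and a digit, or with Cct2 to Cct8, together with Tcp1. This gave 59 genes on 128 spots, of 10225 genes on 18511 spots that carry 1 gene each. By symbol they fall into 6 small heat shock genes, 10 Hsp70 genes, 3 Hsp90 and Hsp110 genes, 3 mitochondrial chaperonin genes, 8 genes of the CCT ring and 29 DnaJ genes. Symbol membership is looser than function: Hspb11 encodes an intraflagellar transport subunit, and Hspd1-ps3 is a pseudogene.

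The study measured spinal cords of SJL/J mice, all adult females, with adoptive-transfer experimental autoimmune encephalomyelitis (AT-EAE), in which transferred myelin-reactive T cells cause inflammatory demyelination, and of control mice. Cords of 2 mice were pooled for each RNA extract, and a 2-colour cDNA array set a pair of extracts from the same group against each other, 1 per channel. AT-EAE array 1 compared AT-EAE extracts 1 and 2, AT-EAE array 2 compared AT-EAE extracts 3 and 4, and control arrays 1 and 2 paired control extracts in the same way. A value is therefore the log ratio between a pair of like extracts, taken to be base 2, and how AT-EAE cord differs from control cord in the level of a gene is not measured. The labels do not give which channel is on top, so "high" and "low" mean the sign as deposited. Ratios of a group are given for array 1 and then for array 2. Pools of whole cord also mean that fewer cells of a type and less RNA per cell cannot be told apart.

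As background, the small heat shock proteins hold unfolding proteins without using ATP. Hsp70 binds and releases exposed stretches of a client in an ATP cycle that DnaJ proteins start and Hsp110 proteins reset, and Hsp90 finishes the maturation of kinases and receptors. CCT is a cytosolic ring of related subunits that folds actin and tubulin, while Hspd1 and its lid Hspe1 form the ring of mitochondria. Many of these genes are switched on in stressed cells by heat shock factor 1, which binds inverted repeats of the unit GAA upstream of them, and small heat shock proteins are known from reactive glia and lesions of inflamed white matter.

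The heat shock element could be read in the promoter sequences that 48 of the 59 genes have in RefSeq (build GRCm38.p6). The 250 bases before each start site were searched for a pair of units (GAANNTTC or TTCNNGAA, each its own reverse complement) and for a run of 3 units, in which such a pair is followed after 2 more bases by a further inverted unit. Runs were counted on both strands, and each run holds a pair of overlapping 2-unit matches. A match is a description of letters and not a bound site. A 2-unit match was found for 13 of the 48 genes (27.1%), against 14.5% of all 27025 genes with a promoter sequence. A 3-unit match was found for 3 of the 48 (6.25%), against 0.514% of all genes. The 3 genes were Hspd1, Hspe1 and Dnajb6. Of the 10 Hsp70 genes of the set, 7 had a promoter sequence, and none of these had a match of either kind in these windows. Hspa1a and Hspa1b were not in the set, so their promoters were not searched as members. The stretches below show the longest matches, with that of Hspb1, the small heat shock gene with the highest ratio, for comparison; capitals mark the GAA and TTC units, and every stretch is written 5′ to 3′ on the strand of its gene.
Hspe1, chr1:55088035-55088100, plus strand: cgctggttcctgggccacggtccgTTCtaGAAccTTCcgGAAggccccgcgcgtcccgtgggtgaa
Hspd1, chr1:55088035-55088100, minus strand: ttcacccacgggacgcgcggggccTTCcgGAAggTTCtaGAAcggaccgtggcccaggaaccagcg
Dnajb6, chr5:29735828-29735888, plus strand: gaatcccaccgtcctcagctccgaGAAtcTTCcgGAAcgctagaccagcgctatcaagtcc
Hspb1, chr5:135887778-135887853, plus strand: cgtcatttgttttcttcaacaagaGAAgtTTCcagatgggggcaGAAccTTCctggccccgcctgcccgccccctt
The Hspe1 and Hspd1 stretches are the same 66 bases read from opposite strands, because these genes lie head to head on chromosome 1 and share the region between them. The 13 genes with a 2-unit match had median ratios of -0.01 and -0.09 in AT-EAE, and 0.04 and -0.0035 in control. The 35 genes with a promoter sequence and no match had medians of 0.02 and -0.14 in AT-EAE, and -0.01 and -0.03 in control. The ranges of both sets overlapped on every array.

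Chaperone genes had a deposited value more often than genes in general, on all 4 arrays. In AT-EAE, 54 of the 59 had a value on array 1 (91.5%) and 47 on array 2 (79.7%), against 57 (96.6%) and 56 (94.9%) in control. Over all genes, a value was present for 72.4% and 54.9% on the AT-EAE arrays, and for 86.2% and 80.1% on the control arrays. All 4 arrays gave a value for 47 of the 59, against 53.1% of all genes. Members averaged 2.17 spots and all genes 1.81, which gives members more chances of a value, but the single spots showed the same order: 79.7% and 60.9% of member spots had one in AT-EAE and 90.6% and 86.7% in control, against 61.7%, 42.1%, 80.9% and 72.9% of all spots with 1 gene, in that order of arrays. How the authors removed spots is not given in the sources used here, so a missing value cannot be read as low expression.

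The folding rings and the Hsp90 group were complete, and the losses lay in DnaJ and Hsp70 genes and in Hspb2. All 8 CCT genes, all 3 mitochondrial chaperonin genes and all 3 Hsp90 and Hsp110 genes had a value on every array. Hspa12b, a distant Hsp70 relative of vessel walls, and Dnajb8, a DnaJ gene best known from testis, had none on any array. Dnajb12, an endoplasmic reticulum (ER) membrane protein, Dnajc1, another ER protein, and the ribosome-associated Dnajc2 had values on control arrays alone. A further 7 genes lacked a value on AT-EAE array 2 only: Hspb2, Hspa2, Hspa13, Hspa4l, Dnajc11, Dnajc17 and Dnajc30. The shares of all genes with these patterns of loss were not counted. Values were fewest on AT-EAE array 2 over all genes too, at 54.9%.

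**Figure D1:**
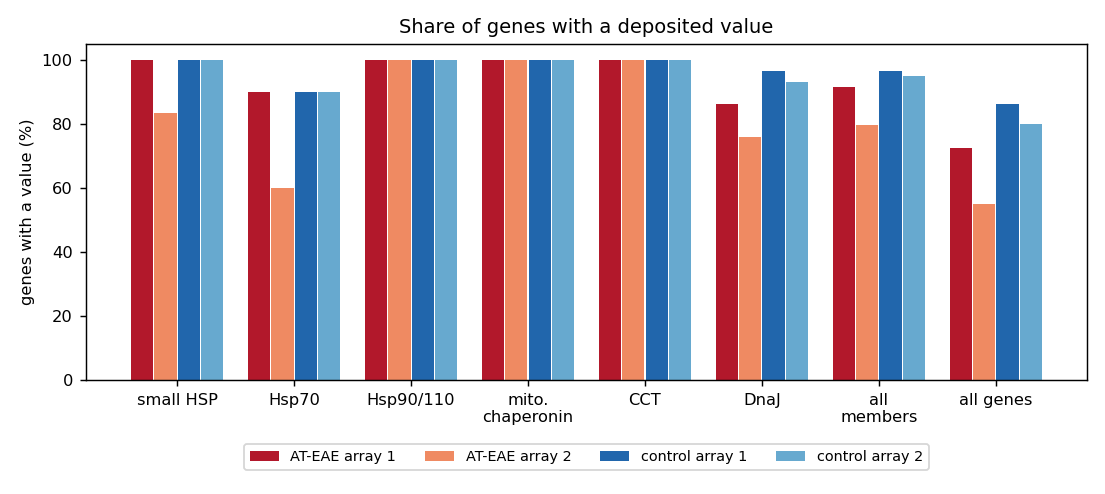
Percentage of genes with a deposited value on each array (y axis), for each family, for all 59 members and for all 10225 genes (x axis); bars run from AT-EAE arrays 1 and 2 to control arrays 1 and 2. The CCT, mitochondrial chaperonin and Hsp90 groups reach 100% on every array, while 6 of the 10 Hsp70 genes have a value on AT-EAE array 2, where all genes stand at 54.9%.

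As a check of the tissue, markers of cord cells were looked up among the values: 4 neuron, 4 astrocyte and 2 oligodendrocyte markers were on the array. All 10 had a value on AT-EAE array 1 and on both control arrays, and 8 of them on all 4 arrays, among them the neurofilament gene Nefl, the glutamine synthetase gene Glul and the myelin gene Mbp. The 1 T cell marker on the array had no value on any array. Of 3 skeletal muscle markers on the array, Csrp3 had a value on all 4, Ckm on the control arrays and Mb on none. Ratios carry no level, so these markers say only that spots passed the authors' filter.

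Ratios of chaperone genes were small, and as a set they sat at the centre of each array. The median over members was -0.00088 and -0.09 in AT-EAE, against -0.01 and -0.02 in control. The medians over all genes of those arrays were 0.0087 and -0.07 for AT-EAE, and -0.0060 and 0.0040 for control. Above the array's own median lay 24 of 54 and 23 of 47 members on the AT-EAE arrays, and 28 of 57 and 23 of 56 on the control arrays. The standard deviation over members was 0.23 and 0.32 in AT-EAE and 0.15 and 0.23 in control. Over all genes it was 0.23, 0.36, 0.21 and 0.27 in the same order.

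Few members passed a ratio of 0.5 in either direction, a 1.41-fold difference if the base was 2. On AT-EAE array 1 these were 2 of 54 members (3.70%, against 3.42% of all genes on that array), the ER Hsp90 gene Hsp90b1 on the low side and the small heat shock gene Hspb1 on the high side. On AT-EAE array 2 they were 4 of 47 (8.51%, against 15.1%): Cct6a and Hspb7 low, Dnajc8 and Dnajc5 high. On control array 1 there were 0 of 57 (against 2.82%), and on control array 2 4 of 56 (7.14%, against 5.77%): Hspa4l, Cct8 and Hsp90aa1 low and Hspb1 high. No member reached a ratio of 1 on any array as deposited. The shares of all genes at that size were 0.365% and 1.07% on the AT-EAE arrays, and 0.136% and 0.391% on the control arrays.

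**Figure D2:**
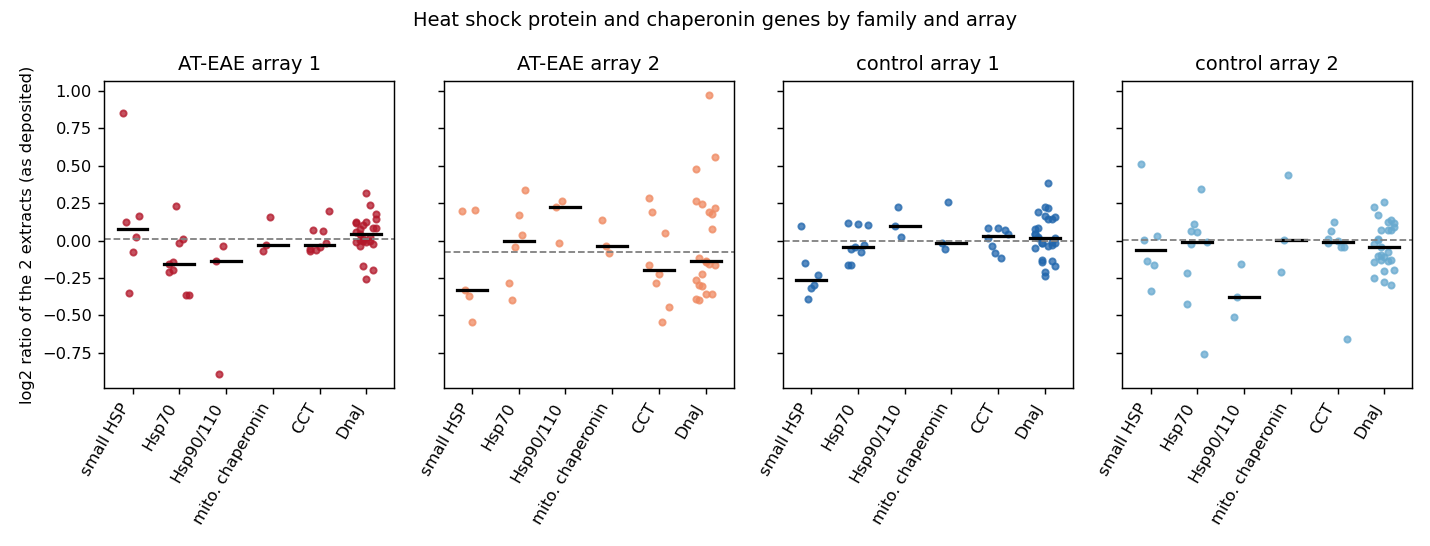
Log2 ratio between the 2 extracts of each array (y axis, as deposited) for every member with a value, by family (x axis), in a panel for each array, with AT-EAE arrays 1 and 2 left of control arrays 1 and 2. Black bars are family medians and the dashed line is the median over all genes of that array; the Hsp90 and Hsp110 median lies at -0.14 and 0.23 in AT-EAE and at 0.10 and -0.38 in control, while the CCT genes run from -0.55 to 0.28 on AT-EAE array 2.

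Repeated spots of the same clone show how much of such a ratio is measurement. A total of 6 clones of member genes were spotted 2 to 4 times, and the pooled standard deviation between spots of a clone was 0.26 on AT-EAE array 1 (17 spots), 0.26 on AT-EAE array 2 (16 spots), 0.19 on control array 1 (17 spots) and 0.43 on control array 2 (17 spots). These are close to or above the standard deviation over members of the same array, except on AT-EAE array 2, where members spread more widely. They are for single spots, while a member's value is a mean over 1 to 5 spots. The value for control array 2 was 0.17 without 1 spot of Hsp90aa1, left out after the spots were seen, which is under the 0.23 over members. On AT-EAE array 1 the spots of Hsp90b1 lay farthest apart, at -1.44 and -0.35, and the value was not recomputed without them. Over clones of all genes the standard deviation was 0.19 and 0.23 on the AT-EAE arrays, and 0.21 and 0.28 on the control arrays. Of the 59 members, 22 had 1 spot and 21 had 3 or more.

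The stress-inducible cytosolic Hsp90 gene Hsp90aa1 shows this most plainly. One of its clones was spotted 4 times, and on AT-EAE array 1 those spots read -0.18, -0.16, -0.29 and 0.06, while AT-EAE array 2 gave 0.08, -0.26, -0.06 and 0.68. The same 4 spots read -0.04, -0.07, 0.06 and 0.27 on control array 1, and -0.26, -1.68, 0.12 and -0.30 on control array 2. The single spot at -1.68 set the gene's mean of -0.51 on that array, which was -0.22 without it, a value computed after the spots were seen.

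The chaperonin gene Hspd1 was steadier between spots of its repeated clone. Its clone that was spotted 3 times read -0.04, -0.06 and -0.10 on AT-EAE array 1, while AT-EAE array 2 gave 0.29, -0.12 and 0.14. On control array 1 the spots read -0.00023, 0.13 and -0.14, and on control array 2 they read -0.18, -0.19 and -0.27. Spots of the clone agreed to within 0.1 on AT-EAE array 1 and control array 2, and took both signs on the other arrays. The gene's other clones read 5.1e-05 and -0.42 on control array 2.

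Cct3, a CCT subunit, had a clone with 4 spots. They read 0.08, 0.10, 0.10 and 0.02 on AT-EAE array 1, while AT-EAE array 2 gave 0.35, 0.15 and 0.09, with no value for 1 spot. On control array 1 they read -0.15, -0.34, 0.33 and 0.02, and on control array 2 0.07, -0.01, 0.03 and 0.16. The control array 1 spots spanned both signs while those of AT-EAE array 1 lay close together.

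Of members with different clones, Dnaja1, a cytosolic partner of Hsp70, had 3 spots that were all high on AT-EAE array 2, at 0.25, 0.45 and 0.74. The same spots lay at 0.04, 0.05 and -0.12 on AT-EAE array 1, at 0.17, 0.09 and -0.03 on control array 1, and at 0.05, -0.10 and -0.03 on control array 2. The CCT gene Cct2 likewise had 3 spots at 0.24, 0.21 and 0.39 on AT-EAE array 2, against -0.21, -0.03 and 0.07 on AT-EAE array 1. Its control values were 0.12, 0.10 and 0.02 on array 1 and -0.08, -0.0069 and 0.03 on array 2. For both genes, independent clones put AT-EAE array 2 above the other arrays.

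**Figure D3:**
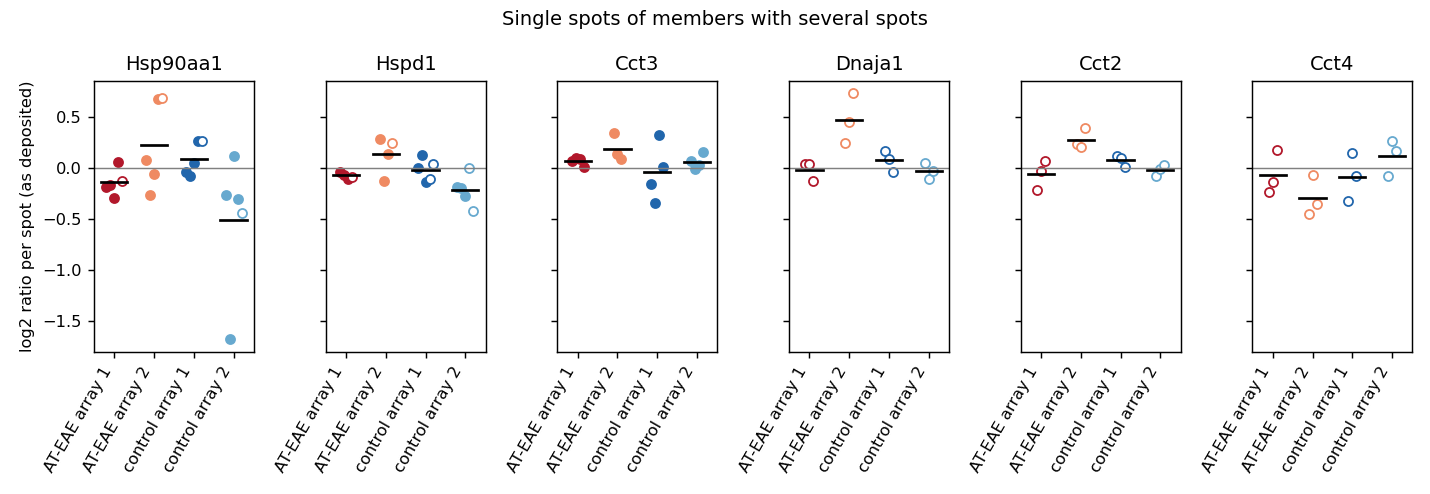
Log2 ratio of every spot (y axis, as deposited) of 6 members with 3 or more spots, on AT-EAE arrays 1 and 2 and control arrays 1 and 2 (x axis). Filled points are spots of a clone that was spotted more than once, open points are clones spotted once, and black bars are gene means; the lowest point is the Hsp90aa1 spot at -1.68 on control array 2, and all 3 spots of Dnaja1 and of Cct2 lie above 0 on AT-EAE array 2.

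Among the small heat shock genes, Hspb1 (Hsp27, an actin-protecting chaperone induced in stressed neurons and glia) was high on every array. Its ratios were 0.86 and 0.20 in AT-EAE, and 0.10 and 0.51 in control. The first was the 4th highest of 7398 genes on that array, and the last the 97th highest of 8187. The mean over the 4 arrays was 0.42 ± 0.13 (SE). Limma over 5429 genes gave it a Benjamini-Hochberg adjusted p of 0.324, so it did not pass. A single spot carries the gene.

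The other small heat shock genes were mostly low. Hspb6 (Hsp20, a chaperone of smooth and skeletal muscle) was at -0.07 and -0.37 in AT-EAE and -0.32 and -0.34 in control, low on all 4. Its mean of -0.28 ± 0.10 (SE) had an adjusted p of 0.385 in limma. Hspb7, the cardiac and muscle member, was at 0.02 and -0.54 in AT-EAE and at -0.30 and -0.16 in control. Hspb2, the partner of muscle myotonic dystrophy kinase, was at -0.35 on AT-EAE array 1, with no value on array 2, and at -0.39 and -0.14 on the control arrays.

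Hspb8, which works with Bag3 to clear aggregates, was at 0.16 and 0.20 in AT-EAE and at -0.23 and 0.03 in control. Its low value on control array 1 came from 1 of 3 spots, at -1.01, and that spot had no value on either AT-EAE array. Its remaining spots were all above 0 on every array, from 0.02 to 0.31. Hspb11 was at 0.13 and -0.33 in AT-EAE and at -0.15 and 0.0070 in control.

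As a family, the 6 genes had medians of 0.08 and -0.33 in AT-EAE and -0.26 and -0.07 in control, a mean of -0.13 ± 0.29 in AT-EAE and -0.17 ± 0.14 in control (SD, n = 2 arrays each). On AT-EAE array 2 the median was -0.07 without genes that have 1 spot. Without Hspb11 the medians were 0.02 and -0.08 in AT-EAE and -0.30 and -0.14 in control. On control array 1, where 5 of the 6 lay below the array median, the muscle marker Csrp3 was at -1.29 and the muscle creatine kinase gene Ckm at -0.05. On the other arrays Csrp3 lay at 0.18, -0.02 and 0.05 (AT-EAE arrays 1 and 2 and control array 2), and the part of muscle tissue in these ratios was not tested.

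The Hsp70 genes spread in both directions. Hspa8, the constitutive Hsc70 of all cells, was at -0.21 and 0.04 in AT-EAE and at 0.12 and -0.43 in control. Its spots differed widely on AT-EAE array 2, at 0.37 and -0.30, and on control array 2, at -0.80 and -0.05. Hspa5 (BiP, the Hsp70 of the ER) was at -0.36 and 0.17 in AT-EAE and at 0.10 and -0.0076 in control. Hspa9, the mitochondrial Hsp70, was at -0.15 and 0.34 in AT-EAE and at -0.17 and -0.02 in control.

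Hspa12a, an atypical Hsp70 abundant in brain, was the one Hsp70 gene with values on all 4 arrays that kept to 1 side of the median. Its ratios were -0.16 and -0.28 in AT-EAE and -0.16 and -0.22 in control, the narrowest range of any gene of this family with values on all 4. These are means over clones that disagreed, with spots from -0.47 to 0.21 on AT-EAE array 1. On control array 2 a spot at -0.74 stood apart from the others, at -0.07 to -0.01. AT-EAE array 2 had a value for 2 of the 4 spots. Limma gave a mean of -0.20 ± 0.09 (SE) with an adjusted p of 0.457. The Hsp110-like exchange factors differed from each other: Hspa4 was at 0.0093 and -0.05 in AT-EAE and -0.08 and 0.34 in control, and Hspa4l was at -0.36 on AT-EAE array 1 and at -0.03 and -0.76 on the control arrays. Clones of Hspa4 disagreed, with spots at -0.64 and 0.55 on AT-EAE array 2 and from -0.45 to 0.13 on control array 1.

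The ribosome-associated Hspa14 was at 0.23 and -0.40 in AT-EAE and at -0.04 and 0.11 in control. Hspa13, an ER-associated member, was at -0.20 on AT-EAE array 1 and at -0.05 and 0.06 on the control arrays, and Hspa2, the Hsp70 of germ cells, at -0.02 and at 0.11 and 0.05 on the same arrays. Of the Hsp70 genes, 7 of 9 measured on AT-EAE array 1 and 2 of 6 on array 2 were under the median of all genes, against 6 of 9 and 5 of 9 on the control arrays. The family medians were -0.16 and -0.0052 in AT-EAE, and -0.04 and -0.0076 in control.

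The 3 Hsp90 and Hsp110 genes lay on the same side of the array median as each other on each of the 4 arrays. Hsp90aa1 was at -0.14 and 0.23 in AT-EAE and at 0.10 and -0.51 in control. Hsp90b1 (Grp94, which folds integrins and Toll-like receptors in the ER) was at -0.89 and -0.02 in AT-EAE and at 0.23 and -0.38 in control. Hsph1 (Hsp105, an Hsp70 exchange factor) was at -0.04 and 0.26 in AT-EAE and at 0.02 and -0.15 in control.

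AT-EAE array 1 and control array 2 thus had all 3 under the median of all genes, and the other arrays had all 3 over it. The group was formed by symbol, and related genes outside it were mixed. Some kept this order, as counted below, and the following did not. The Hsp110-like Hspa4 was over the median on control array 2, at 0.34, and Hspa4l under it on control array 1, at -0.03. The mitochondrial Hsp90 gene Trap1, which the symbol rule does not take in, was over it on AT-EAE array 1, at 0.12. Hsp90b1 on AT-EAE array 1 was the 37th lowest of 7398 genes, and both spots of its clone were low there, at -1.44 and -0.35. The family medians were -0.14 and 0.23 in AT-EAE and 0.10 and -0.38 in control, and the second was 0.08 with the median over spots.

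This order of sides of the array median was then counted over all genes, after it had been seen in these 3. The side is not always the deposited sign, since Hsp90b1 was at -0.02 on AT-EAE array 2, above a median of -0.07. It was found in 10 of the 47 members with values on all 4 arrays (21.3%), against 7.37% of all genes. The 10 were Hsp90aa1, Hsp90b1, Hsph1, Hspa5, Hspa8, Dnaja1, Dnajc7, Dnajc21, Cct2 and Cct7, where the DnaJ genes other than Dnaja1 are named because of the pattern. Outside the group in which it was noticed it was found in 7 of 44 (15.9%), and the exactly opposite order in 4 of 47 (8.51%, against 8.92% of all genes). On at least 1 array, 7 of the 10 were within 0.05 of the array median, so many of these sides rest on very small differences.

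Members that kept to 1 side of the array median on every array were counted as well. On the same side of the array median on all 4 arrays lay 6 of 47 members (12.8%), against 22.9% of all genes, with Hspb1 and Dnajc27 above (2 members, against 11.9% of all genes) and Hspb6, Hspa12a, Dnajb9 and Dnajc9 below (4 members, against 11.1%). A dye effect and a difference between extracts cannot be told apart here, as dye and extract go together on an array.

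**Figure D4:**
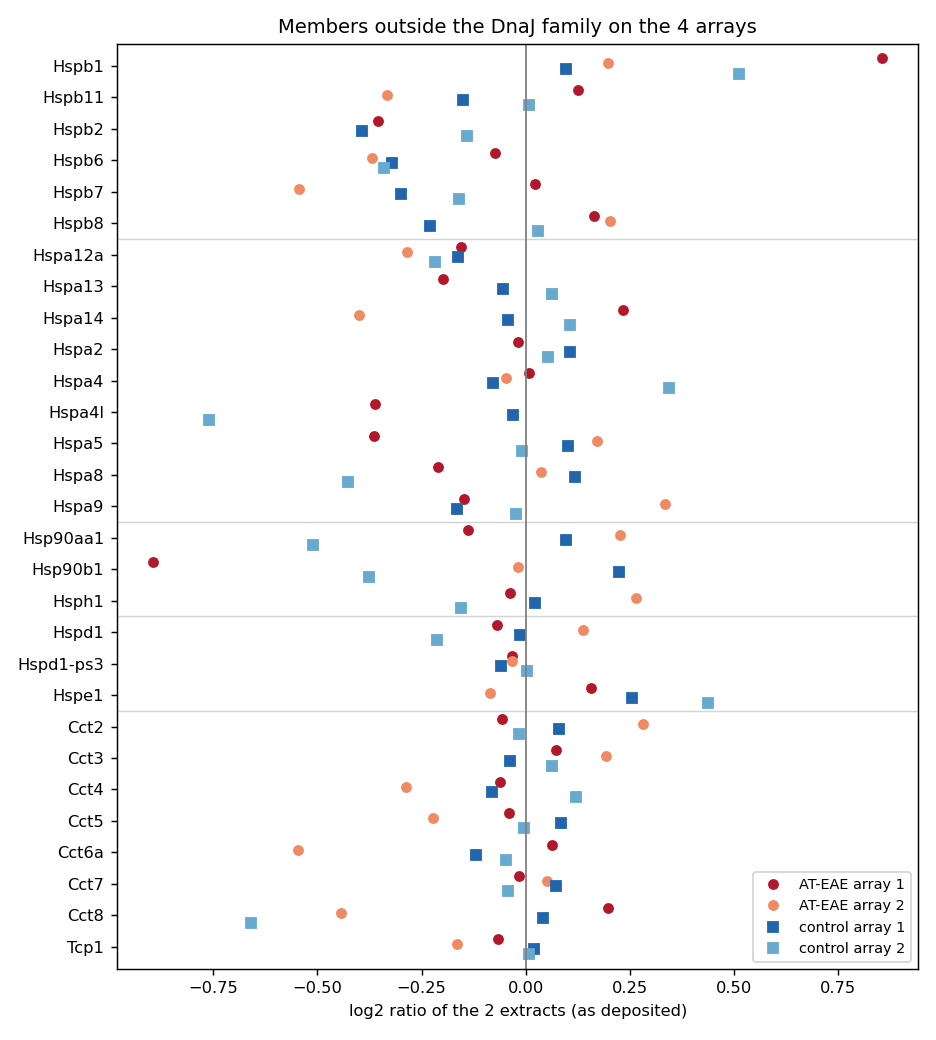
Log2 ratio (x axis, as deposited) of every measured member outside the DnaJ family (y axis) on the 4 arrays; circles are AT-EAE arrays 1 and 2, squares are control arrays 1 and 2, and grey lines part the families. Hspb1 lies right of 0 on all 4 arrays and Hspb6 and Hspa12a left of it, while Hsp90aa1, Hsp90b1 and Hsph1 lie left on AT-EAE array 1 and control array 2.

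The mitochondrial ring and its lid had opposite signs, although their genes share the upstream region printed above. Hspd1 (Hsp60) was at -0.07 and 0.14 in AT-EAE and at -0.01 and -0.21 in control. Hspe1 (Hsp10) was at 0.16 and -0.09 in AT-EAE and at 0.25 and 0.44 in control, on the other side of 0 from Hspd1 on all 4. Some of these signs rest on small values. Hspd1 spots ran from -0.14 to 0.13 on control array 1 and from -0.12 to 0.29 on AT-EAE array 2. On control array 2 they ran from -0.42 to 5.1e-05. On AT-EAE array 2 Hspe1 was also close to the array median of -0.07. Hspe1 rests on 1 spot and Hspd1 on 5, and the gap was widest on control array 2. The pseudogene Hspd1-ps3, whose spot may also bind Hspd1 transcripts, was within 0.06 of 0 on every array.

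The CCT subunits, which are needed in equal number in a ring, were close to each other on 3 arrays, but for Cct8 on control array 2, and scattered on AT-EAE array 2. The median absolute ratio of the 8 genes was 0.06 and 0.25 on AT-EAE arrays 1 and 2, against 0.08 and 0.04 on the control arrays. Over all genes it was 0.12 and 0.23 in AT-EAE, and 0.12 and 0.15 in control. On AT-EAE array 2 the subunits ran from Cct6a at -0.55, Cct8 at -0.44, Cct4 at -0.29, Cct5 at -0.22 and Tcp1 at -0.16 up to Cct7 at 0.05, Cct3 at 0.19 and Cct2 at 0.28.

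On AT-EAE array 1 they ran from Tcp1 at -0.07 to Cct8 at 0.20, with the others between -0.06 and 0.07. On control array 1 they lay between Cct6a at -0.12 and Cct5 at 0.08. On control array 2 Cct8 stood apart at -0.66, on 1 measured spot, and the other subunits lay between -0.05 (Cct6a) and 0.12 (Cct4). Clones of a subunit also disagreed, since AT-EAE array 2 had Cct4 spots at -0.45, -0.06 and -0.35, and control array 1 had them at -0.32, 0.15 and -0.08.

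Among the 29 DnaJ genes, which carry the J domain that triggers Hsp70, the extremes were on AT-EAE array 2. Dnajc5, the cysteine string protein that keeps synaptic vesicle proteins folded, was at 0.12 and 0.97 in AT-EAE and at 0.16 and -0.13 in control, with 1 spot behind both AT-EAE values. Dnajc8, found with splicing factors, was at 0.11 and 0.56 in AT-EAE and at -0.01 and -0.07 in control. For both genes AT-EAE array 2 gave the highest of the 4 values.

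Dnaja1 had a mean over the 4 arrays of 0.13, with 0.48 on AT-EAE array 2. Dnajb1, the classical heat-inducible Hsp40, was at 0.23 and -0.15 in AT-EAE and at 0.22 and 0.12 in control. At the low end, Dnajc9, a histone co-chaperone of dividing cells, was at -0.0088 and -0.26 in AT-EAE and at -0.17 and -0.29 in control. Dnajc10, the ER disulfide reductase, was at -0.26 and -0.36 in AT-EAE and at -0.14 and 0.07 in control. Its spots differed, at -0.56 and 0.05 for AT-EAE array 1, and -0.94 and 0.22 for the second array.

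Dnaja3, a mitochondrial member, was at -0.17 and -0.31 in AT-EAE and at -0.13 and 0.07 in control. Dnajb9, an ER partner of BiP, was at -0.00099 and -0.22 in AT-EAE and at -0.23 and -0.04 in control. As a family the DnaJ genes had medians of 0.04 and -0.14 in AT-EAE (25 and 22 genes) and 0.02 and -0.04 in control (28 and 27 genes), each within 0.07 of the array median.

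Members were also grouped by compartment, a grouping made after the values were seen. It was not complete, since Dnajb12, an ER membrane protein with no value on either AT-EAE array, was left out. The 9 ER members taken had a median of -0.20 on AT-EAE array 1, with 6 of 8 measured genes under the array's own. The next array, AT-EAE array 2, had a median of -0.13 with 4 of 7 under it, and on the control arrays it was -0.02 and -0.0076, with 5 of 9 under it on each. The 7 members of mitochondria had medians of -0.00077 and 0.14 in AT-EAE and -0.02 and -0.02 in control. A list of further ER folding genes behaved alike on AT-EAE array 1: 4 of 19 measured genes lay above the array median there, at a list median of -0.13, against 8 of 15 on AT-EAE array 2 (median -0.04), and 14 of 21 and 8 of 20 on the control arrays (medians 0.03 and -0.04).

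In that list, Manf, a secreted ER stress protein, was at -0.41 and -0.32 in AT-EAE and -1.19 and -0.33 in control, Ern1, the stress sensor IRE1, had a mean of -0.18 over the 4 arrays, and Eif2ak3, the sensor PERK, -0.13. At the upper end Pdia6, a disulfide isomerase, had a mean of 0.36, Xbp1, the transcription factor downstream of IRE1, 0.34, and the ubiquitin ligase gene Syvn1 0.10. The lectin chaperones Calr and Canx and the isomerase Pdia4 had the same order of sides as the Hsp90 group, 3 of the 15 genes with values on all 4 arrays, against 7.37% of all genes. Calr was at -0.52 and 0.18 in AT-EAE and at 0.11 and -0.04 in control. The 6 macrophage markers on the array were likewise all under the median of AT-EAE array 1, with their own median at -0.41 and the lysozyme gene Lyz2 at -1.01. On AT-EAE array 2 their median was -0.14, with 2 of 4 over the array's, and on the control arrays it was 0.13 and 0.02, with 3 of 5 and 4 of 6 over it. Both oligodendrocyte markers were under the median of AT-EAE array 1 too, with Cnp at -0.56 and Mbp at -0.22, and so were 3 of 4 measured meningeal and fibroblast markers, at a median of -0.46. Mbp, at -0.22 and 0.02 in AT-EAE and 0.28 and -0.18 in control, had the order of sides of the Hsp90 group. The part of these cell types in the chaperone ratios was not tested.

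Co-chaperones and other cytosolic folding genes, a list of 33 genes on the array, had medians of -0.05 and 0.04 in AT-EAE and 0.07 and 0.10 in control. At the top by mean over the 4 arrays were the prefoldin gene Pfdn4 at 0.26, the mitochondrial Hsp90 gene Trap1 at 0.21 and the import receptor gene Tomm70a at 0.18. Lowest were Stip1, which bridges Hsp70 and Hsp90, at -0.12, the kinase co-chaperone gene Cdc37 at -0.10 and Sugt1 at -0.09. Of the genes of this list with values on all 4 arrays, 4 of 22 (18.2%) had the order of sides of the Hsp90 group. The share of all genes was 7.37%. They were Stip1, Chordc1, Grpel2 and Ttc1, and all but Stip1 are named because of the pattern. Cryab, the small heat shock gene of glia and lens that the symbol rule does not take in, was at -0.19 and -0.17 in AT-EAE and at 0.02 and 0.10 in control. Of 22 genes of this list and 15 of the ER list tested with limma, 0 passed for the mean ratio (1 and 3 had an unadjusted p under 0.05) and 0 for the AT-EAE ratio minus the control ratio (1 and 0 had one). The share of all genes with an unadjusted p under 0.05 was not counted, so these counts cannot be set against a general rate.

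No chaperone gene passed either test across all genes. For a ratio shared by the 4 arrays, limma called 0 of 47 members at an adjusted p under 0.05, against 0.0184% of all genes (1 of 5429), and 2 members, Hspb1 and Hspb6, had an unadjusted p under 0.05. How many of all genes had an unadjusted p that low was not counted. Without AT-EAE array 1 limma called 1 member, Dnajc5, with an adjusted p of 0.0387, against 3.11% of all genes (169 of 5429). The lone AT-EAE array is then assumed to vary like the control arrays. For the difference of the ratio between AT-EAE and control arrays, limma called 0 of 47 members, against 0.0184% of all genes, and 0 had an unadjusted p under 0.05. The lowest adjusted p of a member was 0.995. This difference compares how pairs of like extracts diverge, not the level of a gene in AT-EAE and control cord, and 2 arrays a group limit it.

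The size of the difference between extracts, which does not depend on the channel, was larger on the AT-EAE arrays for most members, as it was for most genes. The mean absolute ratio was larger in AT-EAE for 31 of 47 members, against 61.9% of all genes. Its median over members was 0.17 in AT-EAE and 0.10 in control, against 0.19 and 0.14 over all genes. The median per-gene log2 of AT-EAE over control size was 0.67 for members and 0.38 for all genes. Without AT-EAE array 2 both turned negative, at -0.31 for the 54 members then measured and -0.32 for all genes, so the direction rests on that array. Divided by each array's own spread (a scaled median absolute deviation over genes), they were 0.25 and 0.06. The excess of members over all genes, 0.29, was 0.0070 without AT-EAE array 2.

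CCT genes stood highest by family, at a median log2 size of 1.49, with 6 of 8 larger in AT-EAE. In AT-EAE their median size came to 0.15, against 0.05 in control. With the median over spots, CCT genes were at a log2 size of 0.95 and Hsp70 genes stood highest, at 1.63. Without AT-EAE array 2 the CCT median turned to -0.26, and its excess over all genes, 1.11 with all arrays, was 0.056. Hsp70 genes were at 0.79 (4 of 6 larger), DnaJ genes at 0.74 (14 of 22), Hsp90 and Hsp110 genes at 0.60 (2 of 3), small heat shock genes at 0.50 (4 of 5) and mitochondrial chaperonin genes at -0.13 (1 of 3). Relative to all genes, leaving out 1 array could turn the sign. For small heat shock genes the excess was -0.81 without control array 2 and -0.0044 without AT-EAE array 1. It was -0.24 for Hsp70 genes without control array 2 and -0.09 for DnaJ genes without AT-EAE array 2. The excess of the Hsp90 and Hsp110 genes, 0.22, held its sign only when control array 2 was the one left out (0.28), and was lowest without AT-EAE array 1 (-1.07). The Hsp90 and Hsp110 value differs in sign from their median sizes, 0.18 in AT-EAE and 0.30 in control, since each median falls on a different gene.

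**Figure D5:**
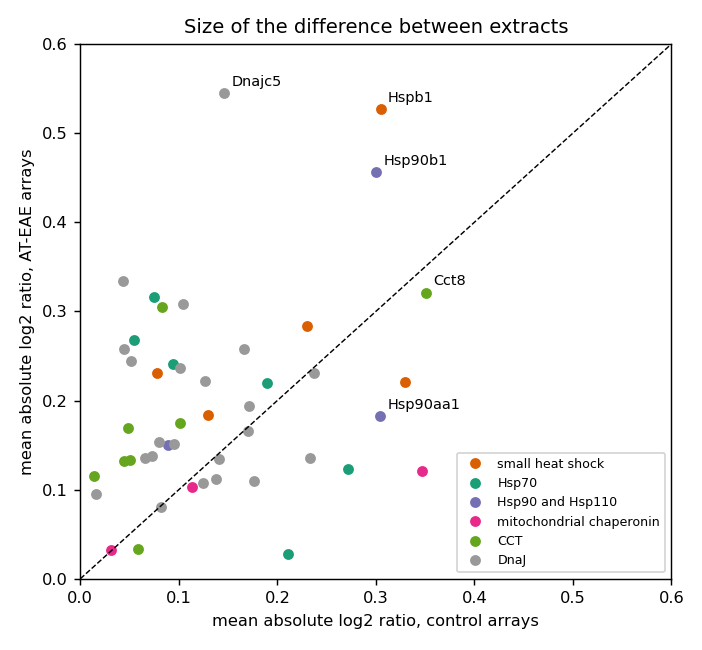
Mean absolute log2 ratio between extracts on the AT-EAE arrays (y axis) against that on the control arrays (x axis) for the 47 members with values on all 4 arrays, coloured by family; the dashed line marks equal size. A majority, 31 of 47, lie above the line, with Dnajc5, Hspb1 and Hsp90b1 highest in AT-EAE and Cct8 just below the line.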

How the data were processed

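Spinal cord RNA was hybridised to 4 cDNA arrays of 28704 spots, 2 for AT-EAE and 2 for control. Per the labels, the authors normalized the signals of both channels and compared them on each array. The deposited values are signed with a median within 0.1 of 0 on every array and were taken to be log2 ratios; base, numerator channel, background correction, spot filter and software were not given in the sources used here. Columns of no sample numbered 0. The number of arrays limits the precision. Nothing says that extracts were independent cohorts, so spreads may be technical.

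Of the spots, 18511 had 1 gene in the platform's clone table, 937 several and 9256 none. A gene's value was the mean over its spots. Symbols of members needed no update to GRCm38.p6. limma (R 4.3.3, limma 3.58) was run on 5429 genes with values on all 4 arrays, for the mean of the group means and for AT-EAE minus control, with Benjamini-Hochberg adjustment. It was tried on simulated data with shifts larger than the ratio of any member. Whether it could call differences of the size seen here was therefore not tested. Python 3.11.15 with numpy 2.4.6, pandas 2.3.3 and matplotlib 3.10.9 did the rest. Alternatives were the median over spots, centring, single spots, at least 1 value per group, genes with 1 spot left out, a replicate block and each array left out. All members outside DnaJ could be named, with the 4 highest and 4 lowest DnaJ genes and 3 at each end of the other lists by mean ratio, and any member past a ratio of 1 or called. Members and lists were chosen with earlier results of these data known. Marker lists were neuron, oligodendrocyte, astrocyte, macrophage, T cell, muscle, red blood cell and meninges; red blood cell markers had medians of -0.02 and -0.88 in AT-EAE and 0.47 and 0.26 in control, and meningeal markers -0.46 and -0.29 in AT-EAE and -0.16 and -0.18 in control.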

Additional observations from a re-analysis of the deposited data

How the results depend on the processing

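Of 140 recomputed family medians, 125 moved by no more than the standard deviation between the 2 arrays of the group, which is wide for some families: on AT-EAE array 2 the Hsp90 and Hsp110 median was 0.08 with the median over spots (0.23 as reported) and the small heat shock median was -0.07 without genes with 1 spot (-0.33 as reported). The medians that moved more lay between -0.21 and 0.14. Genes with 1 spot left out gave 0.021 (Hsp70) and 0.0045 (DnaJ) on control array 2, -0.070, 0.14 and -0.21 for Hspd1 alone as mitochondrial chaperonin on AT-EAE arrays 1 and 2 and control array 2, and 0.020 and -0.0099 for all members on control arrays 1 and 2. Centring gave -0.040 and 0.040 for mitochondrial chaperonins on the AT-EAE arrays and -0.012 for all members on AT-EAE array 2. The median over spots gave -0.00023 for mitochondrial chaperonins and 0.017 for all members on control array 1, and -0.035 for all members on control array 2. Genes with values on all 4 arrays gave 0.0082 for DnaJ and -0.0076 for all members on control array 2. With single-spot genes left out, members past 0.5 numbered 1 and 1 on the AT-EAE arrays and 2 on control array 2, and after centring 1 member, Dnajc5, passed 1 on AT-EAE array 2. Updated symbols changed no count of members with a value.

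The size excess over all genes ranged, with each array left out in turn, from -0.81 to 0.69 for small heat shock genes, from -0.24 to 0.47 for Hsp70, from -1.07 to 0.28 for Hsp90 and Hsp110, from -1.60 to -0.38 for mitochondrial chaperonins, from 0.056 to 1.55 for CCT genes and from -0.09 to 0.72 for DnaJ, so its sign turned for small heat shock, Hsp70, Hsp90 and Hsp110 and DnaJ genes; for mitochondrial chaperonins the lowest value was without control array 2, and without control array 1 it was -1.40. With the median over spots it was 1.26 for Hsp70 and 0.58 for CCT genes, against 1.11 for CCT genes as reported. After centring it was 0.017 for mitochondrial chaperonins. The causes were not tested. Members called by limma for the mean ratio ranged from 0 to 1 with each array left out in turn: without AT-EAE array 1, Dnajc5 was called (adjusted p = 0.0387), as 169 of all genes were, and 17 genes for AT-EAE minus control. Over all genes, 3 and 0 were called on single spots and 15 and 2 with at least 1 value per group, with 0 members. In limma with the array number as a replicate block, 0 members were called for either contrast, and 41 and 6 genes in all, against 1 and 1; the labels do not say that the number marks a shared batch, and deviations of same-numbered arrays correlated at -0.287 over 5429 genes.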
